A study of Homo sapiens with 4 samples.

Results

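GFRA3 and CNTFR encode neurotrophic co-receptors that are tied to the outer face of the plasma membrane by a glycosylphosphatidylinositol (GPI) anchor and have no signalling domain of their own. They are 2 of the 14812 genes measured, and were chosen by their log2 difference between SSRP1 siRNA and control siRNA on these same arrays, upward for GFRA3 and downward for CNTFR. That difference is therefore given as a description and was not tested. Each gene was read from its only named probe set, 17000428 for GFRA3 (gene ID 2676) and 17093463 for CNTFR (gene ID 1271).

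The cells were BE(2)C, a clone of the human neuroblastoma line SK-N-BE(2), grown in medium with fetal calf serum. The 2 control arrays came from cells given non-targeting ON-TARGETplus siRNA, and the 2 SSRP1 siRNA arrays from cells given siRNA against SSRP1, both delivered with a cationic lipid. All cells were collected 72 hours after transfection and 100 ng of RNA was hybridised to Affymetrix Human Gene 2.0 ST arrays, which read each transcript with many probes along its exons. SSRP1 is a subunit of the histone chaperone FACT. The labels name a single catalogue item for SSRP1, so an effect of losing SSRP1 and another effect of that siRNA cannot be told apart. Whether replicates were separate cultures is not stated, and the p-values below rest on a spread between arrays that may be technical.

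GFRA3 binds artemin, a ligand of the glial cell line-derived neurotrophic factor (GDNF) family, and presents it to the receptor tyrosine kinase RET. In the sympathetic lineage from which neuroblastoma arises, artemin and GFRA3 guide axons and support neuron precursors. CNTFR binds ciliary neurotrophic factor and recruits LIFR and IL6ST (gp130), which activate JAK kinases and the transcription factor STAT3.

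The start regions of both genes are shown as RefSeq places them, to set their base composition side by side. Where transcripts begin in these cells was not measured. Each runs from 250 bases before to 50 bases after a transcript start in RefSeq (GRCh38.p14), on the minus strand, with every CpG dinucleotide in capitals. The GFRA3 window is chr5:138274572-138274871 and the CNTFR window is chr9:34589675-34589974.
GFRA3: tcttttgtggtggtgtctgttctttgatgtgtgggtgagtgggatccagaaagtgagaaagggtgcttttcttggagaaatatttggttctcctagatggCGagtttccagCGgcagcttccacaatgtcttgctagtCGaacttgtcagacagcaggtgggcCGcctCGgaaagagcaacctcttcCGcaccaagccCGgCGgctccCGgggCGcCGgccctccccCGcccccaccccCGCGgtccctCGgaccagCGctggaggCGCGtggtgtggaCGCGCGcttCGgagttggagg
CNTFR: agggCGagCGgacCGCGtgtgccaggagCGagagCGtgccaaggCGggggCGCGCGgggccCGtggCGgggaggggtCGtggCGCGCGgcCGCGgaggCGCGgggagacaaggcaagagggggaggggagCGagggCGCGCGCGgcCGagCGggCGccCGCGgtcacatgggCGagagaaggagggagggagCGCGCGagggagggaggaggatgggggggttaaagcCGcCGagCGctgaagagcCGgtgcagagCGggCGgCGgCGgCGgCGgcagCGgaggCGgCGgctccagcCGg

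The GFRA3 window held 22 CpG dinucleotides in 300 bases, with a GC content of 61.3%. The CNTFR window held 48, with a GC content of 79.3%. Over 35116 RefSeq start windows of that length the median was 14 CpG dinucleotides and a GC content of 58.7%, which put GFRA3 at the 63.3rd and CNTFR at the 98.2nd percentile for CpG. Both windows held 1 GC box (GGGCGG, either strand, which contains a CpG), as did 45.0% of all windows. It began at base 227 in GFRA3 and at base 258 in CNTFR, counted from the 5′ end of the printed strand. No TATA box (TATAAA, in 11.5% of all windows), CCAAT box (CCAAT, 34.6%), E-box (CACGTG, 7.26%) or STAT site (TTCNNNGAA, 7.66%) was found on either strand of these 2 windows. These letters describe the windows, and binding was not measured.

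GFRA3 had log2 values of 2.66 and 2.71 with control siRNA and of 4.19 and 4.31 with SSRP1 siRNA. Both SSRP1 siRNA arrays lay above both controls, and the nearest arrays of the groups were 1.48 apart on the log2 scale. The gap between replicates was 0.049 in the controls and 0.11 with SSRP1 siRNA. The group means were 2.69 ± 0.034 and 4.25 ± 0.080 (SD, n = 2 each), a log2 change of 1.56 ± 0.10 (SE) or 2.96-fold. Among all genes this was the 11th largest difference upward. The control values lay below the lower quartile of all genes on every array (2.99 to 3.04) and the SSRP1 siRNA values between that quartile and the median (4.63 to 4.65). At such a low control level a probe set can reflect background as well as RNA, which can compress a fold. Whether it did so here, and whether the control cells held GFRA3 transcript, was not tested.

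CNTFR had log2 values of 10.64 and 10.53 with control siRNA and of 9.59 and 9.36 with SSRP1 siRNA. Both SSRP1 siRNA arrays lay below both controls, and the nearest arrays of the groups were 0.94 apart. Replicates differed by 0.11 in the controls and by 0.23 with SSRP1 siRNA. The group means were 10.58 ± 0.079 and 9.47 ± 0.16 (SD, n = 2 each), a log2 change of -1.11 ± 0.12 (SE), which left 46.3% of the control value. It was the 6th largest difference downward. All 4 values lay far above the upper quartile of all genes (6.36 to 6.42), so CNTFR was still a bright probe set with SSRP1 siRNA. Fewer cells with the transcript and less transcript per cell cannot be told apart in RNA from whole cultures.

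**Figure D1:**
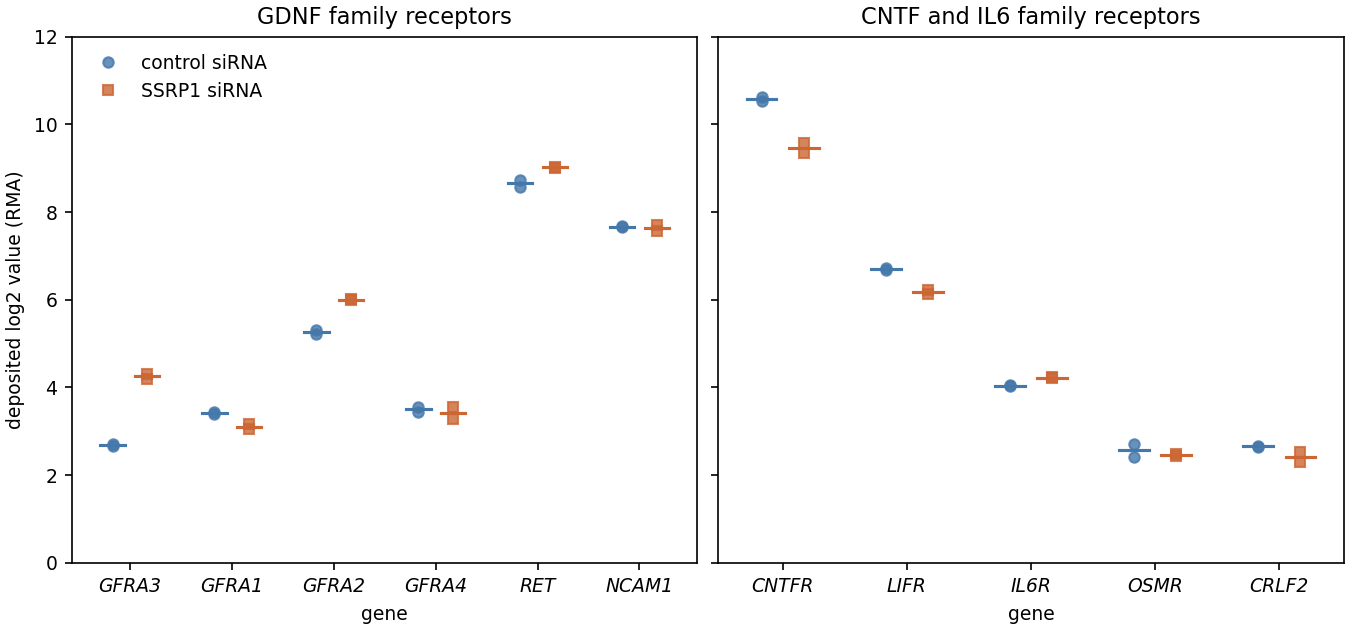
Deposited log2 value (y axis) of receptor genes (x axis) on each array, with circles for control siRNA, squares for SSRP1 siRNA and short lines for the means of 2 arrays. GFRA3 goes from a mean of 2.69 to 4.25 and CNTFR from 10.58 to 9.47 without overlap; values are to be read within a gene, not between genes.

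The background to these differences was sparse by the adjusted test and broad by simple separation. By limma with Benjamini-Hochberg adjustment over all genes, 14 of 14812 genes (0.0945%) had an adjusted p under 0.05, with 12 of them higher (0.081%) and 2 lower (0.0135%). The count was 28 (19 higher) after quantile normalization and 23 (17 higher) after median centring. It was 0 when any 1 of the 4 arrays was left out. Differences of 2-fold or more were seen upward in 49 genes (0.331%) and downward in 8 (0.054%). The groups did not overlap for 44.3% of genes, so separation of 2 arrays from 2 says little by itself. With 0.0945% of all genes called, most short lists would likewise hold 0 called genes. A count of 0 in a list below does not show that the list was unchanged. SSRP1, the siRNA target, fell from a log2 value of 9.14 to 7.19, a change of -1.95 ± 0.17 (SE, limma adjusted p = 0.0479), and its adjusted p lay between 0.241 and 0.599 when any 1 array was left out.

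**Figure D2:**
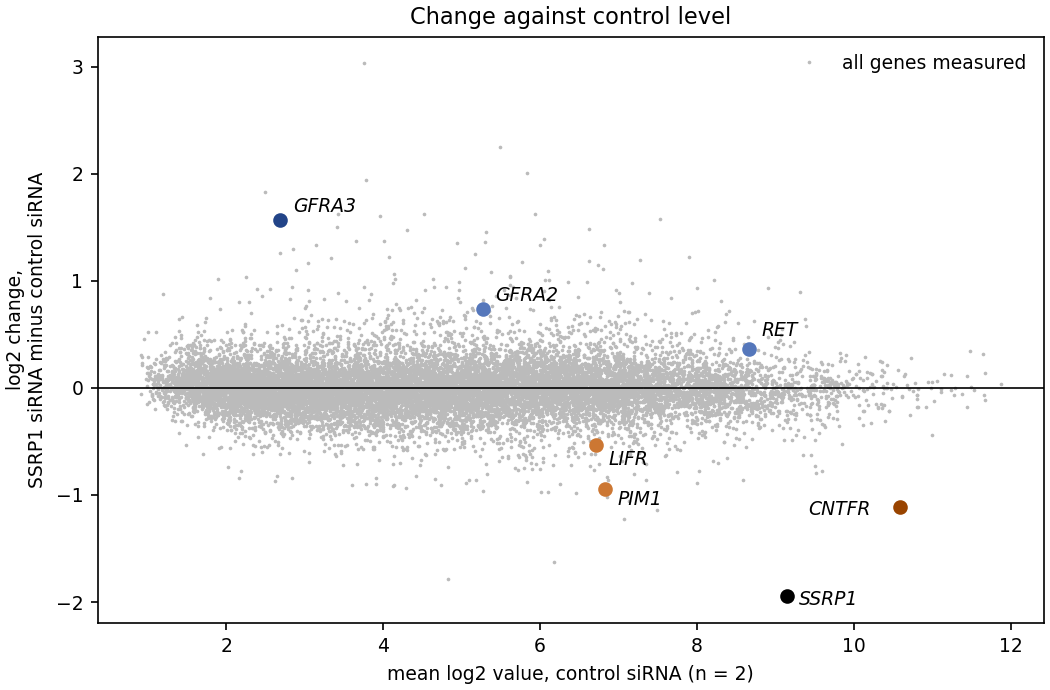
Log2 change (y axis, SSRP1 siRNA minus control siRNA) against the control mean (x axis, log2 value, n = 2), with a grey point per gene. GFRA3 lies at a low control level with a change of 1.56, and CNTFR at a high control level with a change of -1.11.

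The measured GDNF family ligands had log2 changes from -0.13 to 0.24. Of 5 ligands listed, 4 were measured and 0 passed the limma test (0.0945% of all genes), with adjusted p from 0.450 to 0.895. ARTN, which encodes artemin, the ligand of GFRA3, had values of 3.65 and 4.15 in the controls and 3.75 and 4.26 with SSRP1 siRNA, a log2 change of 0.11 ± 0.23 (SE). Its arrays overlapped, and the gap within each group exceeded the difference between the means. NRTN, which encodes neurturin, had a log2 change of -0.13, PSPN (persephin) one of 0.13, and GDF15, a more distant family member that binds GFRAL, one of 0.24. GDNF itself was not analysed here.

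The other GDNF family receptors had changes of both signs. Apart from GFRA3, 8 receptors and co-receptors were measured, and 0 passed the limma test over all genes, against 0.0945% of all genes. Unadjusted p was under 0.05 for 4 of the 8, against 12.6% of all genes. Their median log2 change was -0.04, against -0.00715 over all genes, with 3 above 0 and 5 below. The groups did not overlap for 4 of the 8, with 2 higher and 2 lower, against 44.3% of all genes.

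GFRA2, the neurturin co-receptor, had the largest change of these. Its log2 values were 5.22 and 5.32 in the controls and 6.01 and 5.99 with SSRP1 siRNA, a change of 0.73 ± 0.10 (SE, limma adjusted p = 0.107). RET, the kinase that signals for these co-receptors, had values of 8.74 and 8.57 in the controls and 9.03 and 9.01 with SSRP1 siRNA. Both SSRP1 siRNA arrays of RET lay above both controls, with a log2 change of 0.36 ± 0.11 (SE, limma adjusted p = 0.300). GFRA2 passed with an intensity trend in the variance model (limma adjusted p = 0.0259), where 215 of 14812 genes passed. It also passed among genes at or above the median level (limma adjusted p = 0.0168), where 179 of 7406 passed. The main fit called 14 of 14812 genes, and GFRA2 passed in no other setting.

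GFRA1, the GDNF co-receptor, had log2 values of 3.43 and 3.39 in the controls and 3.04 and 3.16 with SSRP1 siRNA. That is a change of -0.31 ± 0.10 (SE, limma adjusted p = 0.337), opposite in sign to GFRA2 and GFRA3. GAS1, a GPI-anchored protein related to the GFRA co-receptors, had a log2 change of -0.37 ± 0.15 (SE, limma adjusted p = 0.389), and its arrays did not overlap. GFRA4, the persephin co-receptor, and GFRAL, the receptor of GDF15, had log2 changes of -0.08 and -0.05 with overlapping arrays. NCAM1, an adhesion molecule that can receive GDNF signals without RET, and SDC3, a heparan sulfate proteoglycan that binds GDNF, had changes of -0.04 and 0.0073.

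Adaptors and effectors that RET recruits were measured for 20 of 32 listed genes. None passed the limma test (0.0945% of all genes), 0 had an unadjusted p under 0.05 (12.6% of all genes), and the log2 changes ran from -0.19 to 0.19 with a median of -0.05. The members of smallest p were SOS1, an exchange factor for RAS (-0.19), DOK6, a docking protein of RET (0.19), and IRS2, a docking protein shared with the insulin receptor (-0.13). These 3 did not pass, with adjusted p from 0.531 to 0.664.

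Ligands of the CNTF and interleukin 6 family were measured for 6 of 10 genes, and 0 passed (0.0945% of all genes). CNTF, which encodes a ligand of CNTFR, was not analysed here. LIF, which signals through LIFR and gp130, had values of 3.68 and 3.24 in the controls and 3.06 and 4.11 with SSRP1 siRNA. The SSRP1 siRNA arrays of LIF lay on either side of both controls, and its log2 change was 0.12 ± 0.35 (SE). IL11 had a log2 change of -0.26, OSM (oncostatin M) -0.22, IL27 -0.13, CTF1 (cardiotrophin) -0.08 and EBI3, a subunit of IL27, -0.0053. Their adjusted p ran from 0.518 to 0.993.

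LIFR, the signalling partner of CNTFR, was also lower in both SSRP1 siRNA arrays. Its log2 values were 6.73 and 6.69 in the controls and 6.23 and 6.13 with SSRP1 siRNA, a change of -0.53 ± 0.10 (SE, limma adjusted p = 0.170). The groups did not overlap, but the change did not pass the test over all genes. LIFR passed with an intensity trend (limma adjusted p = 0.0475), where 215 of 14812 genes passed. It also passed among genes at or above the median level (limma adjusted p = 0.0398), where 179 of 7406 passed, and in no other setting. IL6R, the interleukin 6 receptor, had a change of 0.18, OSMR, the oncostatin M receptor, -0.10, and CRLF2, a receptor subunit for thymic stromal lymphopoietin, -0.24. Of the 4 listed receptors measured other than CNTFR, 0 passed (0.0945% of all genes). A change below 0 was seen in 3, LIFR, OSMR (with overlapping arrays) and CRLF2. CRLF2 is counted as listed, though thymic stromal lymphopoietin is not among the listed ligands of this family. IL6ST, the shared gp130 subunit, was not analysed here.

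**Figure D3:**
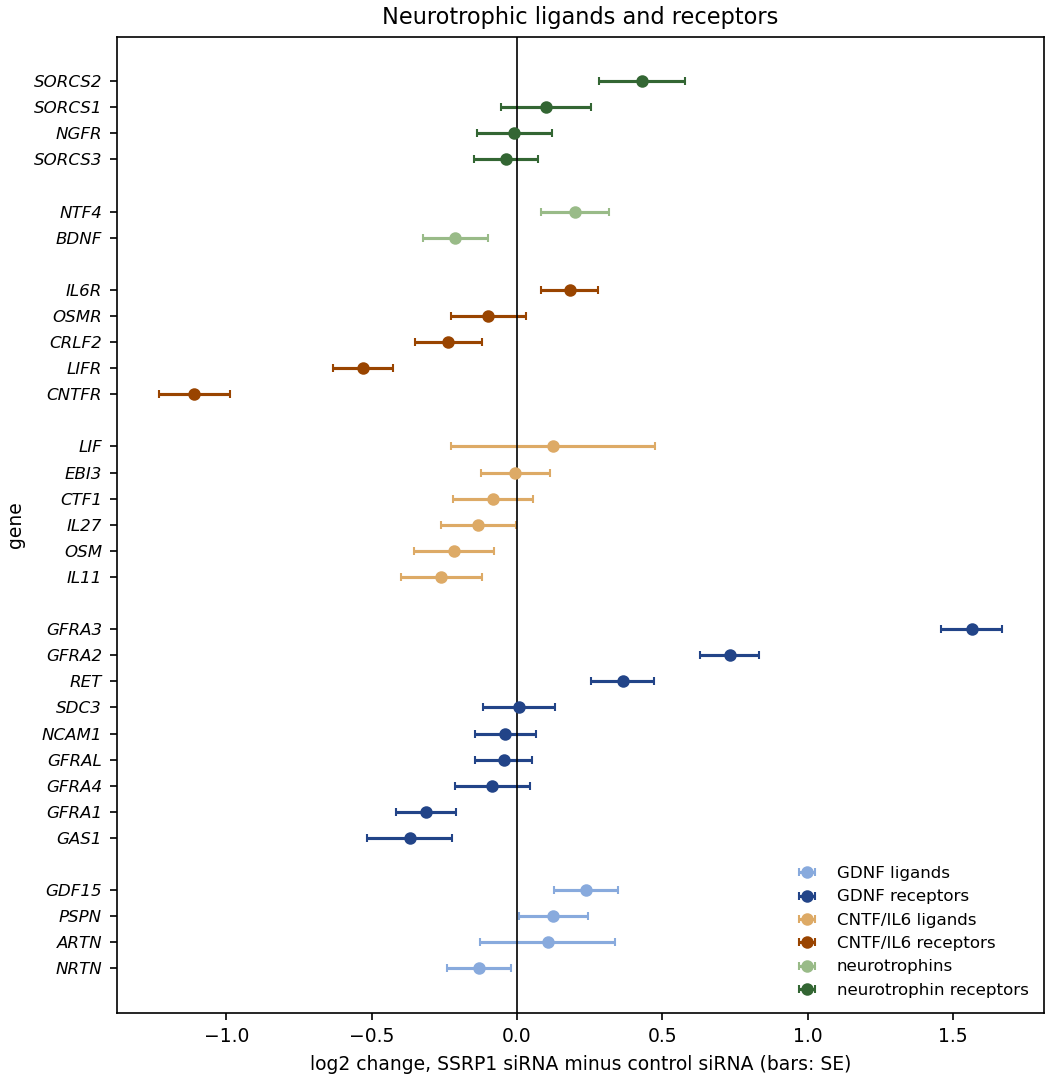
Log2 change (x axis, SSRP1 siRNA minus control siRNA) of each measured ligand and receptor gene (y axis) in 3 neurotrophic families, with bars of 1 SE from the limma fit. GFRA3 (1.56) and CNTFR (-1.11) lie farthest from 0, and GFRA2 (0.73) and LIFR (-0.53) come next within their families.

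Downstream of CNTFR, 8 of 11 JAK and STAT genes were measured and 0 passed (0.0945% of all genes). JAK1, a kinase bound to gp130 and LIFR, had log2 values of 7.55 and 7.24 in the controls and 7.73 and 7.86 with SSRP1 siRNA, a change of 0.40 ± 0.14 (SE, limma adjusted p = 0.350). STAT3, the main transcription factor of the pathway, had a change of 0.24 ± 0.11 (SE, limma adjusted p = 0.462), and STAT5A one of 0.49 ± 0.26 with overlapping arrays. Of the JAK and STAT inhibitors 8 of 15 were measured and 0 passed (0.0945% of all genes). SOCS1, which blocks JAK kinases, had a log2 change of 0.43, SOCS4 one of 0.22, and SOCS3, the feedback inhibitor that binds gp130, one of -0.15 (limma adjusted p from 0.262 to 0.580).

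STAT3 target genes were measured for 18 of 22, and 0 passed (0.0945% of all genes), while 5 had an unadjusted p under 0.05 (12.6% of all genes). Their median log2 change was -0.05, with 7 above 0 and 11 below. PIM1, a survival kinase whose gene STAT3 activates, had values of 6.88 and 6.79 in the controls and 5.90 and 5.87 with SSRP1 siRNA. The groups did not overlap for PIM1, with a log2 change of -0.94 ± 0.10 (SE, limma adjusted p = 0.0631). PIM1 passed after quantile normalization (limma adjusted p = 0.0396), where 28 of 14812 genes passed. It also passed with an intensity trend (limma adjusted p = 0.00696), where 215 of 14812 passed. Among genes at or above the median level it passed too (limma adjusted p = 0.00839), with 179 of 7406 passing. MCL1, an anti-apoptotic gene, had a change of 0.43 (limma adjusted p = 0.214), and BCL6, a transcriptional repressor, had a change of -0.31 (limma adjusted p = 0.333). MCL1 passed with an intensity trend (limma adjusted p = 0.0441) and in no other setting. CCND1 (0.36) and JUNB (0.29) were also higher, with an unadjusted limma p of 0.0358 and 0.0448, and did not pass.

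The neurotrophins and their receptors, a separate family of neurotrophic signals, gave 0 calls (0.0945% of all genes) among 2 of 4 ligands and 4 of 9 receptors. BDNF had a log2 change of -0.21 and NTF4 one of 0.20. SORCS2, a sortilin-related receptor for proneurotrophins, had a change of 0.43 ± 0.15 (SE, limma adjusted p = 0.347), while SORCS1, SORCS3 and the p75 receptor gene NGFR had changes of 0.10, -0.04 and -0.0096.

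The GPI anchor that GFRA3 and CNTFR share is built and attached in the endoplasmic reticulum. Of 34 genes for its synthesis, remodelling and transport 11 were measured. None of the listed PIG genes was among the 11, nor DPM1 or DPM2, so the 11 say little about anchor synthesis. Of the 11, 0 passed (0.0945% of all genes), with 9 above 0 and 2 below and a median log2 change of 0.09. PGAP3, which remodels the lipid of the anchor in the Golgi, had log2 values of 4.17 and 4.08 in the controls and 4.58 and 4.91 with SSRP1 siRNA. Its change was 0.62 ± 0.14 (SE, limma adjusted p = 0.214). TMED10, a cargo receptor for GPI-anchored proteins, and MPPE1, an anchor phosphodiesterase, had changes of 0.18 and 0.39, with adjusted p of 0.542 and 0.574.

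Other genes of GPI-anchored surface proteins were measured for 84 of 116. None passed (0.0945% of all genes), 12 had an unadjusted p under 0.05 (12.6% of all genes), and 38 lay above 0 and 46 below, with a median log2 change of -0.02. The groups did not overlap for 29 of the 84 (12 higher and 17 lower), against 44.3% of all genes. Among these the ephrin ligand gene EFNA4 had values of 4.19 and 4.04 in the controls and 3.19 and 3.21 with SSRP1 siRNA, a log2 change of -0.92 ± 0.11 (SE, limma adjusted p = 0.0839). EFNA3, another A-class ephrin, had a log2 change of -0.71 ± 0.10 (SE, limma adjusted p = 0.113). Both ephrin genes passed with an intensity trend (limma adjusted p = 0.0298 for EFNA4 and 0.0300 for EFNA3), where 215 of 14812 genes passed. EFNA3 also passed among genes at or above the median level (limma adjusted p = 0.0201), where 179 of 7406 passed. TFPI, a coagulation inhibitor with a GPI-linked form, had a log2 change of 1.22 ± 0.30 (SE, limma adjusted p = 0.225).

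Genes with the array profile most like each co-receptor were found by Euclidean distance between the 4 log2 values after each gene's mean was subtracted. The 5 nearest to GFRA3 were KLF2, a zinc finger transcription factor (distance 0.087), NPY2R, a neuropeptide Y receptor (0.099), MBOAT4, the ghrelin acyltransferase (0.21), ANGPT2, a ligand of the TIE2 receptor (0.23), and GPR83, a brain-expressed receptor coupled to G proteins (0.25). Their log2 changes ran from 1.34 to 1.62, which the measure selects for. The 5 nearest to CNTFR were SOSTDC1, a secreted BMP antagonist (0.15), SHISA3, a membrane adaptor protein (0.18), FGF11, an intracellular fibroblast growth factor homologue (0.21), STK17B, a death-associated protein kinase relative (0.22), and PIM1 (0.22). Their log2 changes ran from -1.06 to -0.94. With 4 arrays such likeness mostly restates the difference between groups.

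**Figure D4:**
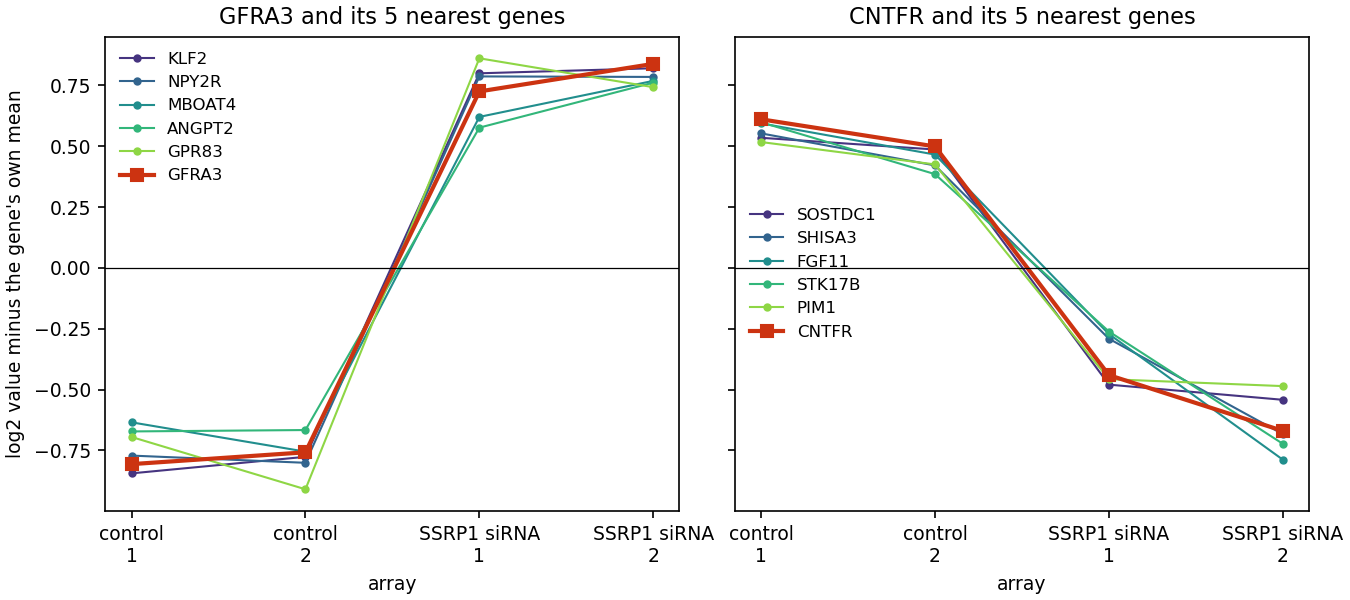
Log2 value minus the gene's own mean over 4 arrays (y axis) on each array (x axis) for GFRA3, CNTFR and the 5 genes nearest to each; lines only join the points of a gene. The genes near GFRA3 have changes from 1.34 to 1.62 and those near CNTFR from -1.06 to -0.94.

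The measured neighbours of each gene on its chromosome, were taken in RefSeq order. Around GFRA3 on chromosome 5 the log2 changes were 0.17 for BRD8, a bromodomain gene, -0.21 for KIF20A, a mitotic kinesin, and -0.00085 for CDC23, a subunit of the anaphase-promoting complex. On the other side they were -0.13 for CDC25C, a phosphatase that opens mitosis, -0.10 for KDM3B, a histone demethylase, and 0.08 for REEP2. None of these 6 passed the limma test (adjusted p from 0.462 to 0.998), against 0.0945% of all genes.

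Around CNTFR on chromosome 9 the log2 changes were 0.30 for MYORG, -0.04 for SPMIP6 and -0.33 for ENHO on one side, and 0.12 for RPP25L and 0.16 for DCTN3, a dynactin subunit, on the other. CNTFR-AS1, the antisense noncoding gene listed next to CNTFR, had values of 4.89 and 4.69 in the controls and 4.84 and 4.44 with SSRP1 siRNA. Its arrays overlapped, and its change was -0.14 ± 0.16 (SE, limma adjusted p = 0.782). None of these 6 neighbours passed the limma test (adjusted p from 0.341 to 0.929), against 0.0945% of all genes.

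**Figure D5:**
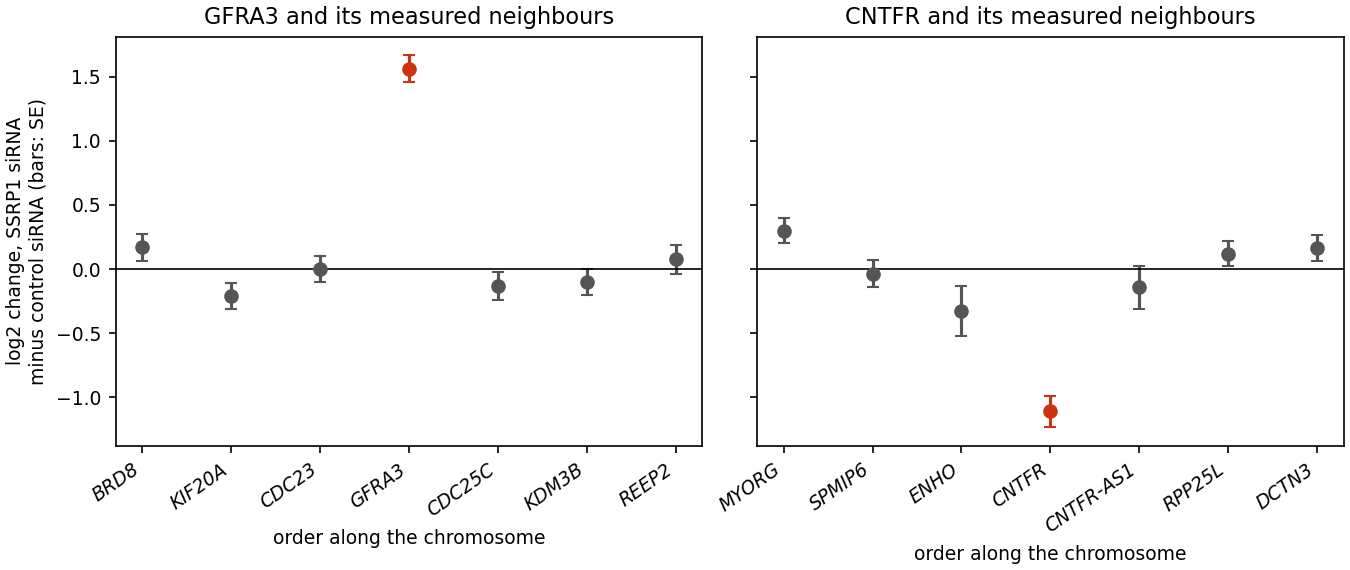
Log2 change with 1 SE (y axis, SSRP1 siRNA minus control siRNA) of GFRA3, CNTFR (red) and the 3 measured genes on either side (x axis, in chromosome order, not to scale). GFRA3 (1.56) and CNTFR (-1.11) are plotted among neighbours whose changes run from -0.33 to 0.30.

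Cell type markers were measured beside these genes. Sympathetic neuroblastoma markers (12 of 18 measured) had control log2 values from 6.41 to 10.82. Of these 0 passed (0.0945% of all genes), with 3 above 0 and 9 below and a median log2 change of -0.12. The members of smallest p were the noradrenaline enzyme gene DBH (-0.77, limma adjusted p = 0.111), INSM1 (0.54) and DDC (0.43). CHGA was higher (0.34), and HAND2 (-0.38), TH (-0.34), PHOX2A (-0.28), GATA3 (-0.24) and STMN2 (-0.18) were lower. GATA2, ISL1 and CHGB had log2 changes of -0.06, -0.06 and -0.01 with overlapping arrays. None of these markers passed. GFRA3 is also known from Schwann cell precursors and sensory neurons. Of 13 Schwann and glial markers 7 were measured and 0 passed (0.0945% of all genes). Their summed linear value was 129 and 127 in the controls and 146 and 137 with SSRP1 siRNA. Of the 7, 4 had a log2 change above 0, S100B (0.47, limma adjusted p = 0.262), ERBB3 (0.12), PMP2 (0.11) and SOX10 (0.04), and 3 below, FOXD3 (-0.08), MBP (-0.02) and GFAP (-0.0053).

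Sensory neuron markers (8 of 16 measured) summed to 390 and 378 in the controls and 380 and 388 with SSRP1 siRNA. Of these 0 passed (0.0945% of all genes), with 3 above 0 and 5 below. POU4F1, with log2 means of 7.99 and 8.09, made up most of that sum, and without it the sum was 131 and 128 in the controls and 112 and 113 with SSRP1 siRNA. Their members of smallest p were lower, with log2 changes of -0.45 for ADCYAP1, -0.32 for CALCA and -0.18 for RUNX1. Fibroblast and stroma markers (3 of 10 measured) summed to 296 and 210 in the controls and 494 and 437 with SSRP1 siRNA. That sum followed LUM, a matrix proteoglycan (1.20 ± 0.25, SE, limma adjusted p = 0.184), while DCN had a log2 change of -0.04 and THY1 0.25. Blood and endothelial markers (5 of 12 measured) summed to 137 and 127 in the controls and 117 and 113 with SSRP1 siRNA. CD68, with log2 values of 6.49 and 6.14 in the controls and 6.10 in both SSRP1 siRNA arrays, made up most of that sum. Of these markers 0 passed (0.0945% of all genes). Their log2 changes were -0.27 for CD2, -0.23 for LYZ and -0.21 for CD68. CLDN5 (-0.14) and VWF (-0.06) had overlapping arrays. Array values have no true zero, so no marker can be called absent, and the part of other cells in the GFRA3 and CNTFR differences was not tested.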

How the data were processed

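Expression was measured on 4 arrays. The deposited table holds log2 values per probe set made by the authors with RMA, per the submitters' processing notes. The RMA version, the build and how probe sets were defined are not stated here, and the log2 scale was read from the values. Of 46255 probe sets 15835 had 1 gene symbol, 0 several and 30420 none here. Symbols came through the gene ID from RefSeq (GRCh38.p14), and the brightest probe set stood for each of 651 genes with several. Samples were grouped by title. The test was limma 3.58.1 in R 4.3.3 (lmFit and eBayes, 2 residual and 3.79 prior degrees of freedom, two-sided), with Benjamini-Hochberg adjustment over 14812 genes. It was run on simulated data with independent errors drawn from the variance model of the fit. That run checks the code and says nothing about replicates that are not independent. RMA makes array distributions alike, so a shift of all transcripts would not show.

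The members and the lists were chosen with earlier results of these data known. Besides GFRA3, CNTFR and SSRP1, the text names all measured ligands and receptors of 3 families. Of each other list it names up to 3 called members with the largest change or, with none called, 3 of smallest p. It also names the 5 nearest profiles and 3 neighbours on each side. Other markers, and CCND1, JUNB, ART4, ULBP1 and CD24, were named after their values were seen. Alternatives covered the replicate block, variance trend, robust variances, 2 normalizations, probe set averaging, a level filter, all probe sets, each array left out and an adjusted p under 0.1.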

Additional observations from a re-analysis of the deposited data

How the results depend on the processing

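The GFRA3 change lay between 1.51 and 1.62 and the CNTFR change between -1.22 and -0.996 when each array was left out. Under quantile normalization and median centring they lay up to 1.58 for GFRA3 and between -1.15 and -1.09 for CNTFR. The block, probe set averaging and the level filter cannot move the mean difference of a gene with 1 probe set, so they say nothing about it. GFRA3 lies below the median level and has no value in the fit restricted to brighter genes. The 14 genes called became 6 with the replicate block, 215 with an intensity trend, 9 with robust variances, 28 after quantile normalization, 23 after median centring, 179 among genes at or above the median level, 0 over all probe sets (smallest limma adjusted p 0.0783, 3854 at an unadjusted p under 0.05), 41 at an adjusted p under 0.1, and 0 without any 1 array (1200 to 1672 at an unadjusted p under 0.05). Whether same-numbered arrays share a culture, day or batch is not stated. Their deviations from the group means correlated at 0.114 over genes, which does not settle it. The block changed no count of called list members. GFRA3 and CNTFR were chosen on this difference, so calls of these 2 genes are left out here. Of the other GDNF family receptors only GFRA2 was called, with an intensity trend and among genes at or above the median level. Of the other CNTF and IL6 family receptors only LIFR was called, in the same 2 settings. STAT3 targets called went from 0 to 2 with a trend and to 1 after quantile normalization, among brighter genes and at an adjusted p under 0.1, and the other GPI-anchored proteins from 0 to 2 with a trend and to 1 among brighter genes and at an adjusted p under 0.1. The SSRP1 change of -1.95 lost its call with the replicate block (limma adjusted p = 0.0569), with robust variances (0.0512) and over all probe sets (0.144), and lay between -2.17 and -1.72 without any 1 array. The cause of these shifts was not tested beyond the number of features or arrays each setting uses. No detection values were used to separate dim probe sets from background.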

Other observations

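Among the GPI-anchored proteins, ART4, which carries the Dombrock blood group, had the largest upward change in the list, and it, ULBP1 and CD24 were named after their values were seen. Its log2 values were 3.54 and 2.75 in the controls and 4.93 and 4.02 with SSRP1 siRNA, a change of 1.33 ± 0.37 (SE, limma adjusted p = 0.271). Its replicates differed by more than those of GFRA3, and in both groups replicate 1 was the higher array. TFPI showed the same order, at 4.27 and 3.88 in the controls and 5.73 and 4.86 with SSRP1 siRNA, and so did ULBP1, a ligand of the NKG2D receptor, at 4.11 and 3.39 against 4.74 and 3.97. CD24, a mucin-type surface protein, had values of 2.60 and 1.98 in the controls and 3.22 and 2.95 with SSRP1 siRNA, a change of 0.80 ± 0.22 (SE, limma adjusted p = 0.271).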
